A study of Mus musculus with 32 samples.

Results

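Forkhead box O (FoxO) transcription factors and genes of autophagy were followed in 3 hind-leg muscles of knock-in mice with a variant of Gne, whose product catalyses the opening steps of sialic acid synthesis. The set holds 10 named genes of the 54838 listed in the deposited table. Foxo1, Foxo3 and Foxo4 encode the transcription factors, Ulk1 a kinase that starts autophagy, and Atg4b a protease that trims Atg8 proteins. Map1lc3a, Map1lc3b and Gabarapl1 encode Atg8 proteins, which are attached to the membrane of the growing autophagosome, and Sqstm1 and Bnip3 encode receptors that tie cargo to them. The genes were chosen by name, with earlier results of these data known, and all 10 passed the filter on low counts in every muscle.

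Growth signals through the insulin and insulin-like growth factor receptors activate Akt, which phosphorylates FoxO proteins and keeps them out of the nucleus. When that signal drops, as in fasting, FoxO proteins enter the nucleus, and in mouse muscle FoxO3 is known to raise transcription of atrophy and autophagy genes, among them Map1lc3b, Gabarapl1 and Bnip3. Autophagy itself delivers cytoplasm and organelles to the lysosome, and the Sqstm1 protein is degraded along with its cargo, so that its mRNA and its protein need not move together.

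RNA was sequenced from male mice aged up to 3 months. Sick and healthy mice both carried GNE M743T on each of their 2 alleles, a substitution known from people with the inherited muscle disease GNE myopathy, and differed in the phenotype label alone. Wild-type mice were labelled healthy. Sick mice gave 3 libraries of each muscle, healthy knock-in mice gave 3 of gastrocnemius, 4 of quadriceps and 4 of tibialis, and wild-type mice gave 4 of each, 32 libraries in all. The study states 4 mice per state. Every cell of the knock-in mice carries the variant, the labels give no treatment, and they do not state what defines sick. Levels are given as CPM, the usual depth-scaled count, after TMM scaling with every library on 1 scale.

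Total counts ran from 7685164 to 42588233 per library. All 10 markers of muscle fibres had reads in every library. Gne was read at 7.35 to 14.3 CPM and did not pass the test between states in any muscle. The variant is a substitution, so a gene count does not show which libraries carry it. Sick libraries carry the numbers 1, 2 and 3 in gastrocnemius, 2, 3 and 4 in quadriceps and 1, 2 and 4 in tibialis. Same-numbered libraries from different muscles of a state deviated together from their group means (correlation across genes 0.02 to 0.564, over 0.1 in 26 of 28 pairs), whereas those numbered differently had a median of -0.138. Deviations from a group mean cancel within the group, which by itself pushes that median down, so it is no separate evidence. The labels do not say that a number marks a mouse, so results in the 3 muscles are not counted as independent, and a p-value reflects only how much these libraries vary, which may be technical.

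Some libraries stood apart and are named here before the results. In tibialis, 10 markers of kidney tubule summed to 0.466 to 0.635 CPM in sick and 0.144 to 2.1 CPM in healthy mice, against 59.1 to 79.6 CPM in wild type, and 9 of the 9 that were measured were lower in sick than in wild-type tibialis. Umod was without a read in 24 of the 32 libraries. Healthy gastrocnemius library 2 held 23.2 CPM of these markers. Of 10 markers of fibro-adipogenic progenitors, 6, 3 and 6 were lower in sick gastrocnemius, quadriceps and tibialis, and of 6 tendon markers 3, 1 and 4 were lower. The progenitor markers summed to 1428 to 2876, 2499.6 to 3428 and 729 to 1419 CPM in sick muscles, against 2762 to 4519.6, 2878 to 5402 and 1906 to 3497 CPM in wild-type muscles, with reads for all 10 in every library. The tendon markers summed to 215 to 423, 149 to 579 and 34.7 to 96.7 CPM in sick muscles, against 595 to 1247, 416 to 682 and 225 to 796 CPM in wild-type muscles, with reads for all 6 in every library. Erythrocyte markers were higher in sick gastrocnemius for 4 of 6 measured (169 to 303 CPM summed, against 78.9 to 162 CPM in wild type), and macrophage markers in sick quadriceps for 4 of 10 (349 to 501 CPM, against 178 to 279.8 CPM in wild type). The erythrocyte marker genes Slc4a1 and Epb42 were without a read in 6 and 5 of the 32 libraries. The part of these cells in the results below was not tested. In bulk tissue, fewer cells of a type and less RNA per cell cannot be told apart.

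The promoters shown are those of the genes called higher in all 3 muscles by limma, and that of Bnip3, the one with a match to a searched motif. Each window runs from 250 bases before to 50 after the gene's start, 5′ to 3′ along the gene, from RefSeq on GRCm38.p6, which held such a window for 8 of the 10 genes (Foxo4 and Map1lc3a had no entry). Capitals mark a match. The Foxo1 window is chr3:52268087-52268386 (plus strand), that of Foxo3 chr10:42276646-42276945 (minus strand), that of Map1lc3b chr8:121590188-121590487 (plus strand) and that of Bnip3 chr7:138909457-138909756 (minus strand).
Foxo1: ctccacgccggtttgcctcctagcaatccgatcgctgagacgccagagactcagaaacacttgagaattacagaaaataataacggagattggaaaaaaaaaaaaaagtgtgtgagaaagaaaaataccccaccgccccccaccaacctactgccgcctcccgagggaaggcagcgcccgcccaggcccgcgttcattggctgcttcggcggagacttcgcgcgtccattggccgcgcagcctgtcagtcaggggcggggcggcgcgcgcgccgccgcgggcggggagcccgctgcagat
Foxo3: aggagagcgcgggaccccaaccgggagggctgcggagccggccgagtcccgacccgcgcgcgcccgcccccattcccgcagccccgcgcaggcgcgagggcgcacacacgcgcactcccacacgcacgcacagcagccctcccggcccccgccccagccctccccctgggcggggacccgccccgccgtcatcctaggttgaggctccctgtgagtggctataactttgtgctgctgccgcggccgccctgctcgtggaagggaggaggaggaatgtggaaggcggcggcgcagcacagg
Map1lc3b: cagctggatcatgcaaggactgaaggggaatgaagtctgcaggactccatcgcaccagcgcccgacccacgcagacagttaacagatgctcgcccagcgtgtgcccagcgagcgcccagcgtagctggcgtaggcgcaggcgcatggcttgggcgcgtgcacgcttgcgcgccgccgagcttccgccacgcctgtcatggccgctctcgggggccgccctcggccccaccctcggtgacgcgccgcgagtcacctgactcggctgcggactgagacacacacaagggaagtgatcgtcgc
Bnip3: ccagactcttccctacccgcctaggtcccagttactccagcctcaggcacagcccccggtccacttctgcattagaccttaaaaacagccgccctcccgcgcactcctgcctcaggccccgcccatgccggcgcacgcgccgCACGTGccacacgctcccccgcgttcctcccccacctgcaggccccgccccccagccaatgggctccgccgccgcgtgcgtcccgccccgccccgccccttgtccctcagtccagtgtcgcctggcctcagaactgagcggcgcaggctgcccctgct
The motifs searched on both strands were the FoxO element GTAAACA, the insulin response type of FoxO element CAAAACA and the E-box core CACGTG of the TFEB element, TFEB being the regulator of lysosome genes. They do not overlap in these windows. GTAAACA was present in 3.65%, CAAAACA in 6.28% and CACGTG in 7.15% of the 32851 windows of this length over 27025 genes. Among the 8 windows of the set the one match was CACGTG in Bnip3, 108 bases before the start, and the other 7 windows held none of these letters. The search describes letters in these windows alone.

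Foxo1, which also controls glucose metabolism in muscle and liver, lies on GRCm38 chromosome 3 from 52268336 to 52353221 (ENSMUSG00000044167, plus strand). It stood at 102, 188 and 154 CPM in sick gastrocnemius libraries 1, 2 and 3, against 20.5, 40.3, 26.4 and 104 CPM in wild-type libraries 1 to 4. Sick quadriceps libraries 2, 3 and 4 held 239, 142 and 114 CPM, against 20.6, 38.3, 25.4 and 101 CPM in wild type. In tibialis, sick libraries 1, 2 and 4 held 118, 320.3 and 104 CPM, against 23.1, 36.6, 27.2 and 98.3 CPM in wild type. The groups overlapped in gastrocnemius alone, where sick library 1 lay just under wild-type library 4. Foxo1 rose in sick mice by 1.85 ± 0.52, 2.1 ± 0.59 and 2.01 ± 0.61 on the log2 scale across gastrocnemius, then quadriceps, then tibialis (± SE, limma, adjusted p = 0.0383, 0.0351 and 0.0411, n = 3 sick and 4 wild-type libraries each). The call was lost when any of wild-type libraries 1, 2 or 3 was left out in each muscle, when sick libraries 2 or 3 were left out in gastrocnemius and quadriceps, and when sick libraries 1 or 2 were left out in tibialis (limma, adjusted p = 0.0621 to 0.181).

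The libraries numbered 4 held far more Foxo1 than the others outside the sick group. In the 5 healthy and wild-type libraries numbered 4 it ran from 98.3 to 109.9 CPM, and in the 18 numbered 1 to 3 from 17.7 to 40.3 CPM. Sick libraries 4, at 114 and 104 CPM in quadriceps and tibialis, were thus close to the wild-type libraries 4 of the same muscles at 101 and 98.3 CPM. Foxo3 showed a smaller gap, with 45.2 to 59.6 CPM in the 5 healthy and wild-type libraries numbered 4 and 22.3 to 45.8 CPM in the 18 numbered 1 to 3. Without the libraries numbered 4, a choice made after seeing these values, Foxo1 was higher in sick mice by 2.35, 2.73 and 2.78 on the log2 scale in gastrocnemius, quadriceps and tibialis (limma, adjusted p = 0.00508, 0.000352 and 0.00708). This also left out sick libraries 4 of quadriceps and tibialis, the lowest sick ones there for Foxo1, whereas gastrocnemius had no sick library 4. Calls over all genes tested rose as well in quadriceps in this fit, so the lower adjusted p there is not particular to Foxo1. For gastrocnemius and tibialis the share of all genes called in this fit is not given here.

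Foxo3, the member best known for driving autophagy genes in muscle, lies on chromosome 10 from 42181841 to 42276755 (ENSMUSG00000048756, minus strand). Sick gastrocnemius libraries 1, 2 and 3 held 106, 119 and 98 CPM, against 22.3, 33.8, 38.5 and 46.8 CPM in wild-type libraries 1 to 4. In quadriceps, 144, 94.8 and 80.5 CPM in sick libraries 2, 3 and 4 stood against 36, 33.5, 45.8 and 45.4 CPM in wild type. Sick tibialis libraries 1, 2 and 4 held 111, 188 and 69.6 CPM, against 32.8, 28.2, 35.3 and 45.2 CPM in wild type. Every sick library lay above every wild-type library of its muscle, and above every healthy one too. Foxo3 rose by 1.64 ± 0.27, 1.39 ± 0.25 and 1.69 ± 0.35 on the log2 scale in the 3 muscles (limma, adjusted p = 0.00579, 0.0106 and 0.0124). These calls held in all 14 alternatives in gastrocnemius and in tibialis, and in quadriceps in all but that without sick library 2 (limma, log2 fold change 1.12, adjusted p = 0.0598).

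Foxo4, on chromosome X from 101254528 to 101260873 (ENSMUSG00000042903, plus strand), followed another order. It stood at 317, 179.7 and 188 CPM in sick gastrocnemius libraries 1, 2 and 3, against 130.2 to 187 CPM in wild type. Sick quadriceps libraries 2, 3 and 4 held 197, 153 and 247 CPM, against 159 to 205 CPM in wild type. In tibialis, 412, 243 and 298 CPM in sick libraries 1, 2 and 4 stood against 155 to 172 CPM in wild type. The sick libraries numbered 1 were the highest for Foxo4 in both muscles that had them, and the groups were apart in tibialis alone. Foxo4 rose in tibialis by 0.91 ± 0.18 on the log2 scale (limma, adjusted p = 0.0104), a call that held in all 14 alternatives. The changes of 0.55 ± 0.23 in gastrocnemius and 0.15 ± 0.17 in quadriceps did not pass (limma, adjusted p = 0.119 and 0.548), and without sick library 4 the quadriceps value was -0.03.

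**Figure D1:**
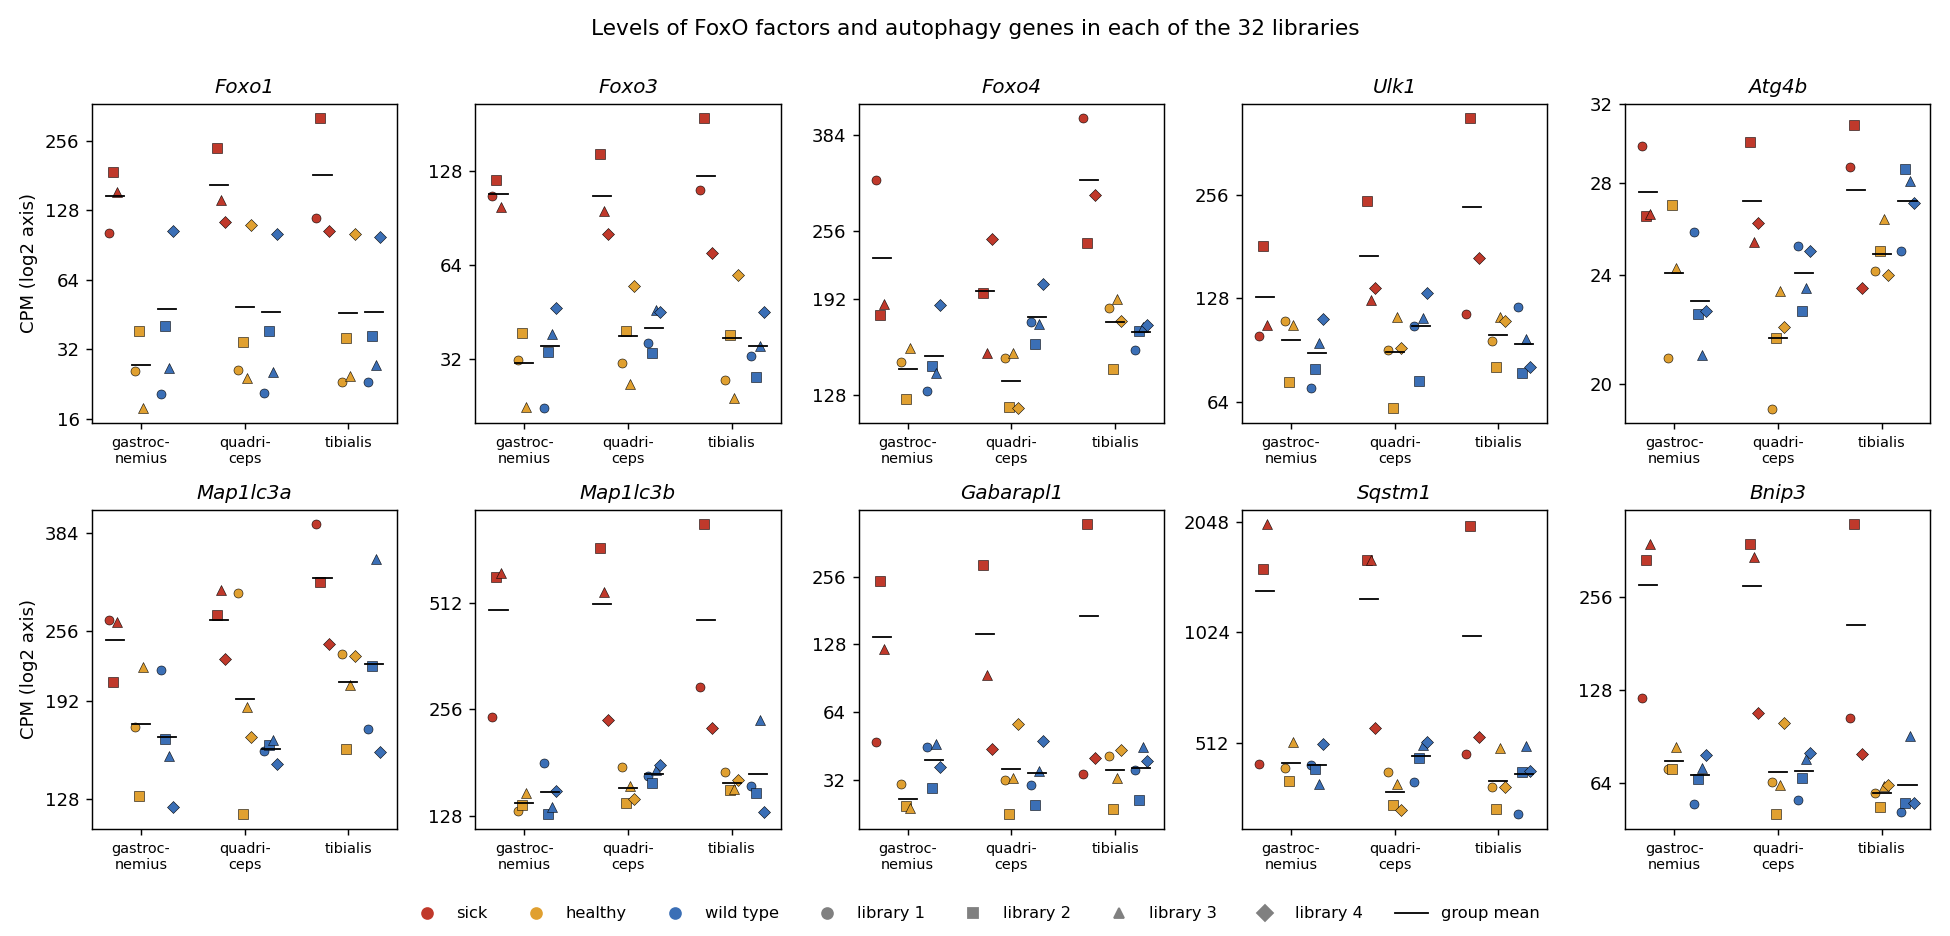
CPM on a log2 axis of each gene in each library, with sick, healthy and wild-type libraries from left to right within each muscle, the marker shape giving the library's number and the black line the group mean. Foxo3 is above the other groups in all 9 sick libraries, and Foxo1 is near 100 CPM in the healthy and wild-type libraries numbered 4.

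Ulk1, whose kinase is switched on by energy shortage and starts autophagosome formation, lies on chromosome 5 from 110784488 to 110810097 (ENSMUSG00000029512, minus strand). It stood at 115, 427 and 167 CPM in sick tibialis libraries 1, 2 and 4, against 120.4, 77.7, 97.1 and 80.5 CPM in wild type. Library 2 was far above the other sick libraries and library 1 was within the wild-type range. Ulk1 rose in tibialis by 1.11 ± 0.35 on the log2 scale (limma, adjusted p = 0.0448). Without sick library 2 the change was 0.60, and the call was also lost without any of the 4 wild-type libraries (limma, adjusted p = 0.0536 to 0.113 over these 5 fits). Sick gastrocnemius held 99, 181 and 107 CPM, against 70.1 to 111 CPM in wild type, and sick quadriceps 245, 126 and 137 CPM, against 73.2 to 132 CPM. Neither muscle passed (limma, log2 fold changes 0.48 ± 0.25 and 0.64 ± 0.28, adjusted p = 0.209 and 0.118).

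Atg4b, whose protease exposes the end of Atg8 proteins before they are joined to lipid, was the flattest member. It lies on chromosome 1 from 93751500 to 93790610 (ENSMUSG00000026280, plus strand). It ranged from 23.5 to 30.9 CPM over the 9 sick libraries, against 21 to 28.7 CPM over the 12 wild-type libraries. No muscle passed, with log2 fold changes of 0.27 ± 0.15, 0.21 ± 0.12 and 0.02 ± 0.14 (limma, adjusted p = 0.226, 0.212 and 0.915). The tibialis value turned to -0.02, -0.01 and -0.04 without wild-type library 1, sick library 1 and sick library 2.

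Map1lc3b, which encodes the protein commonly used to count autophagosomes, lies on chromosome 8 from 121590361 to 121598760 (ENSMUSG00000031812, plus strand). Sick gastrocnemius libraries 1, 2 and 3 held 244, 605 and 622 CPM, against 180.2, 129, 135 and 150.2 CPM in wild-type libraries 1 to 4. Sick quadriceps libraries 2, 3 and 4 held 734, 549 and 238 CPM, against 166, 158, 172 and 178 CPM in wild type. In tibialis, 296, 855 and 227 CPM in sick libraries 1, 2 and 4 stood against 155, 148, 239 and 131 CPM in wild type. Sick libraries 2 and 3 were the high ones in each muscle that had them, and the groups overlapped in tibialis alone. Map1lc3b rose by 1.62 ± 0.29, 1.45 ± 0.29 and 1.21 ± 0.36 on the log2 scale in gastrocnemius, quadriceps and tibialis (limma, adjusted p = 0.00745, 0.013 and 0.0386). The gastrocnemius call held in all 14 alternatives. The quadriceps call was lost without sick libraries 2 or 3 (limma, adjusted p = 0.0682 and 0.0542). The tibialis call was lost without sick libraries 1 or 2 or wild-type libraries 1, 2 or 4 (limma, adjusted p = 0.0507 to 0.0862), and without sick library 2 its log2 fold change was 0.68.

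Map1lc3a, its close relative, lies on chromosome 2 from 155276297 to 155278073 (ENSMUSG00000027602, plus strand). Per kilobase of all annotated exons it was the most abundant of the Atg8 members of the set. Without that scaling its mean was below that of Map1lc3b in wild-type quadriceps (157 and 168 CPM). Sick gastrocnemius libraries held 268, 207 and 266 CPM, against 124 to 218 CPM in wild type, and sick tibialis libraries 398, 314 and 243 CPM, against 155 to 345 CPM. In quadriceps, sick libraries 2, 3 and 4 held 274, 303 and 228 CPM, against 156, 160.1, 163 and 148 CPM in wild type. Quadriceps was the muscle where the groups were apart. Map1lc3a rose there by 0.79 ± 0.24 on the log2 scale (limma, adjusted p = 0.0452), and the call was lost without any of the 4 wild-type libraries or without sick libraries 2 or 3 (limma, adjusted p = 0.0747 to 0.185). The changes of 0.63 ± 0.23 in gastrocnemius and 0.55 ± 0.27 in tibialis did not pass (limma, adjusted p = 0.0872 and 0.17), although leaving out wild-type library 1 in gastrocnemius or wild-type library 3 in tibialis gave adjusted p = 0.0489 and 0.0477 (limma).

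Gabarapl1, an Atg8 gene of the GABARAP branch, lies on chromosome 6 from 129533160 to 129542346 (ENSMUSG00000030161, plus strand) and spread most among sick libraries. It stood at 47.2, 245 and 122 CPM in sick gastrocnemius libraries 1, 2 and 3, against 44.8, 29.4, 46.3 and 36.6 CPM in wild type. Sick quadriceps libraries 2, 3 and 4 held 288, 93.3 and 43.9 CPM, against 30.2, 24.8, 34.8 and 47.7 CPM in wild type. In tibialis, 33.9, 439 and 40.1 CPM in sick libraries 1, 2 and 4 stood against 35.3, 26, 44.7 and 38.9 CPM in wild type. Libraries 2 and 3 were high and libraries 1 and 4 were near wild type in every muscle. Gabarapl1 rose by 1.53 ± 0.42 in gastrocnemius and 1.68 ± 0.53 in quadriceps on the log2 scale (limma, adjusted p = 0.0375 and 0.0495). Both calls were lost without any of the wild-type libraries and without sick libraries 2 or 3 (limma, adjusted p = 0.0516 to 0.207), and without sick library 2 the log2 fold changes were 0.99 and 0.92. In tibialis the change of 1.21 ± 0.67 did not pass (limma, adjusted p = 0.215), and it was 0.07 without sick library 2.

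Sqstm1, the receptor gene for ubiquitin-marked cargo, lies on chromosome 11 from 50199366 to 50210827 (ENSMUSG00000015837, minus strand). Sick gastrocnemius libraries 1, 2 and 3 held 447, 1519 and 2016 CPM, against 446, 435, 394 and 506 CPM in wild type. Sick quadriceps libraries 2, 3 and 4 held 1609, 1607 and 562 CPM, against 399, 466, 505 and 514 CPM. In tibialis, 477, 1994 and 529.9 CPM in sick libraries 1, 2 and 4 stood against 326, 425, 502 and 429 CPM. The same numbers were high as for Gabarapl1, and sick libraries 1 fell within the wild-type range. Sqstm1 rose by 1.33 ± 0.41 in gastrocnemius and 1.29 ± 0.31 in quadriceps on the log2 scale (limma, adjusted p = 0.0484 and 0.0216). The gastrocnemius call was lost without any library but sick library 1, and the quadriceps call without any but sick and wild-type libraries 4 (limma, adjusted p = 0.0511 to 0.194), with log2 fold changes of 0.86 and 1.01 without sick library 3. The tibialis change of 0.92 ± 0.39 did not pass (limma, adjusted p = 0.116), and it was 0.29 without sick library 2.

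Bnip3, which encodes a receptor on the outer membrane of mitochondria and is known as a target of both hypoxia and FoxO3, lies on chromosome 7 from 138890836 to 138909519 (ENSMUSG00000078566, minus strand). It stood at 121, 336 and 381 CPM in sick gastrocnemius libraries 1, 2 and 3, against 54.8, 66.1, 72 and 79 CPM in wild type. Sick quadriceps libraries 2, 3 and 4 held 381, 344 and 108 CPM, against 56.5, 66.8, 77 and 80.1 CPM in wild type. In tibialis, 104, 440 and 79.5 CPM in sick libraries 1, 2 and 4 stood against 51.8, 55.5, 90.8 and 55.3 CPM in wild type. The groups were apart in gastrocnemius and quadriceps, and sick libraries 2 and 3 were again the high ones. Bnip3 rose by 1.89 ± 0.33 in gastrocnemius and 1.81 ± 0.39 in quadriceps on the log2 scale (limma, adjusted p = 0.00715 and 0.0164). The gastrocnemius call held in all 14 alternatives, and the quadriceps call was lost without sick libraries 2 or 3 (limma, adjusted p = 0.0973 and 0.0648). In tibialis the change of 1.30 ± 0.45 did not pass (limma, adjusted p = 0.0605). Without sick library 4 it was 1.78 and passed (limma, adjusted p = 0.0191), and without sick library 2 it was 0.58.

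Counted over the set, 6, 7 and 5 of the 10 genes were higher in sick than in wild-type gastrocnemius, quadriceps and tibialis, and none was lower in any. Among all genes tested, 8.22%, 10.5% and 8.44% were higher and 6.52%, 7.49% and 9.61% lower in these comparisons. The medians of the 10 log2 fold changes were 1.43, 1.34 and 1.16, beside -0.03, 0.00 and -0.05 over all genes tested. Sick libraries lay wholly above wild-type libraries for 5, 7 and 3 of the 10, against 13.3%, 15.7% and 14.7% of all genes tested. Foxo1, Foxo3 and Map1lc3b were called in all 3 muscles, Gabarapl1, Sqstm1 and Bnip3 in 2, Foxo4, Map1lc3a and Ulk1 in 1, and Atg4b in none. The counts depended on single libraries. Without sick library 2 they were 3, 0 and 2, without sick library 3 they were 3 in gastrocnemius and 1 in quadriceps, and without wild-type libraries 2 or 3 they were 3 in gastrocnemius and 3 in quadriceps. The tibialis count was 2 without wild-type libraries 1 or 2, and 3 without wild-type library 4 or sick library 1. In quadriceps it was 3 without wild-type library 1, and in gastrocnemius 4 without wild-type libraries 1 or 4. Calls fell in the gene lists described below as well. Without quadriceps sick library 2, selective autophagy receptors called higher went from 8 to 0 and FoxO regulators from 7 to 0. The share of all genes called in these fits is not given here, so the drops are not a result about the members. In the authors' deposited table, 6, 6 and 8 of the genes had an adjusted p under 0.05 and a higher value in sick than in wild-type mice, and none had a lower one. These were not all the same genes. There Foxo1 did not pass in gastrocnemius or quadriceps (authors' DESeq2, adjusted p = 0.103 and 0.0692), whereas Foxo4 passed in gastrocnemius (adjusted p = 0.0235). Gabarapl1, Sqstm1 and Bnip3 passed there in tibialis (authors' DESeq2, adjusted p = 0.00329, 0.018 and 0.0016). The share of all genes that passed in that table is not given here.

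**Figure D2:**
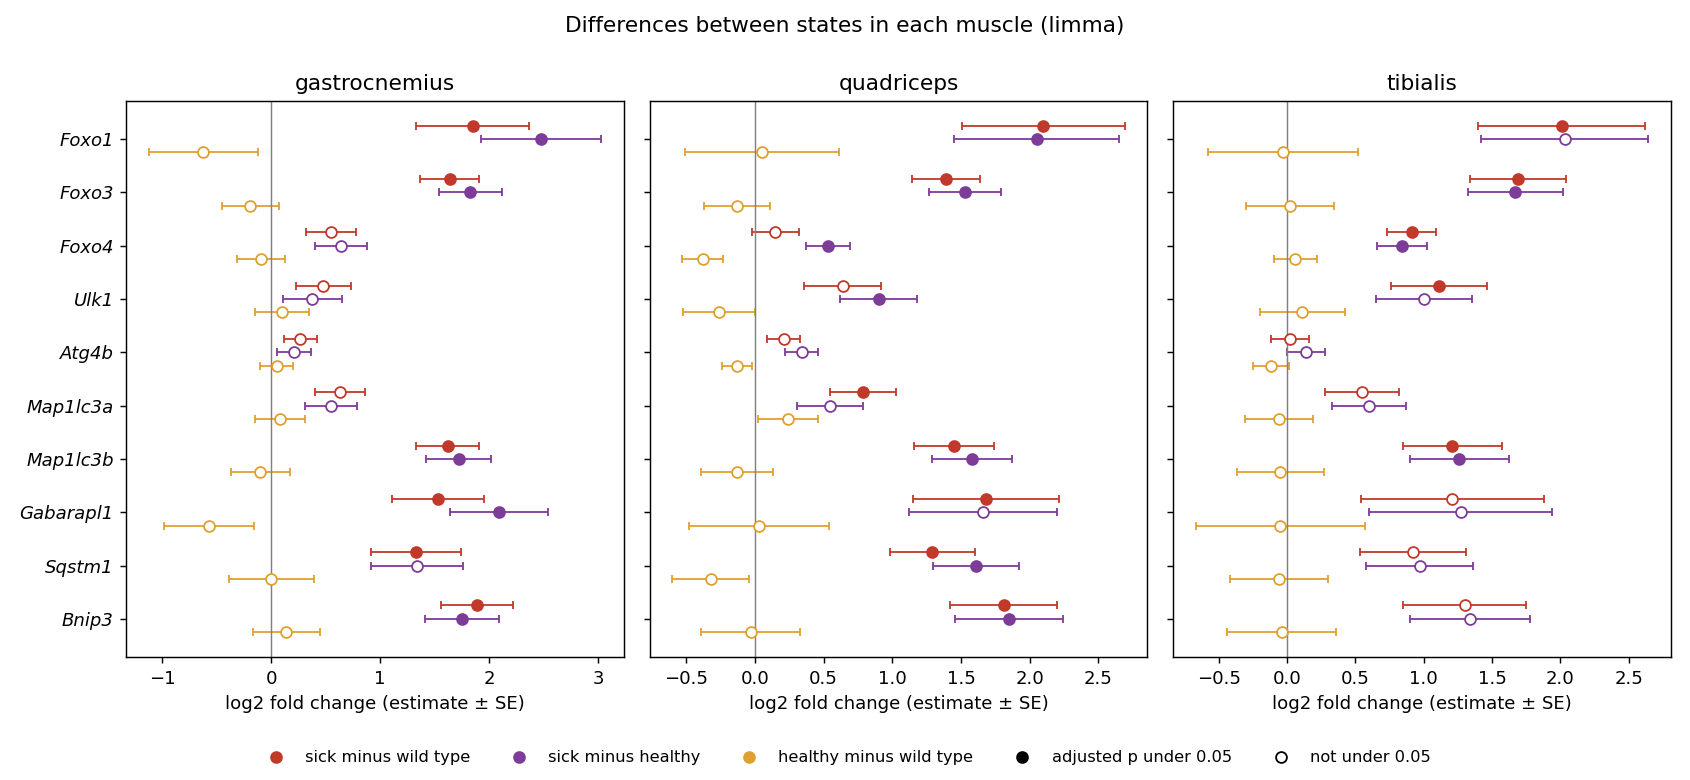
Log2 fold changes (estimate ± SE, horizontal axis) of the 10 genes for sick minus wild type, sick minus healthy and healthy minus wild type in each muscle, filled where the adjusted p is under 0.05. Every filled value lies right of 0, 6, 7 and 5 of 10 against wild type and 5, 7 and 3 against healthy in gastrocnemius, quadriceps and tibialis, and no healthy against wild-type value is filled.

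Healthy knock-in mice carry the same alleles as sick mice, and were set against wild type to compare genotypes without the sick phenotype. No member passed between healthy and wild-type muscle in gastrocnemius, quadriceps or tibialis by limma, where 0.00706%, 0.0362% and 0.496% of all genes tested passed in either direction. At an unadjusted p under 0.05 there were 0, 1 and 0 of the 10, against 7.65%, 4.62% and 4.93% of all genes tested. The 1 gene was Foxo4 in quadriceps, at 121 to 153 CPM in healthy against 159 to 205 CPM in wild-type libraries. Its log2 fold change was -0.38 (SE 0.15, limma, adjusted p = 0.999). The members' log2 fold changes ran from -0.62 to 0.14, from -0.38 to 0.24 and from -0.12 to 0.11. The authors' deposited table also gave 0 of the 10 in each muscle. A miss of the threshold does not show that the groups were alike, and the SE reached 0.62 on the log2 scale (Gabarapl1 in tibialis).

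Sick were set against healthy knock-in mice to compare phenotypes within 1 genotype, with 5, 7 and 3 of the 10 genes higher in gastrocnemius, quadriceps and tibialis and none lower. Over all genes tested, 7.17%, 10.1% and 5.03% were higher and 6.9%, 7.51% and 6.3% lower. The authors' deposited table gave 7, 5 and 8 of the 10 as higher (adjusted p under 0.05) and none as lower. Foxo1, Gabarapl1, Sqstm1, Bnip3 and Ulk1 passed there in tibialis but not by limma (authors' DESeq2, adjusted p = 0.0373, 0.00336, 0.014, 0.00106 and 0.00429). Foxo1, Foxo4 and Ulk1 did not pass there in quadriceps (authors' DESeq2, adjusted p = 0.0853, 0.0632 and 0.0555). The share of all genes that passed there is not given here. Sick libraries lay wholly above healthy ones for 6, 8 and 7 of the 10, against 18.2%, 12.3% and 14.9% of all genes tested. The sick libraries are those of the comparison with wild type, so these values are given side by side and are no independent support. Foxo3 was higher by 1.83 ± 0.29, 1.53 ± 0.26 and 1.67 ± 0.35 on the log2 scale (limma, adjusted p = 0.00406, 0.00763 and 0.0204), with 22.6 to 38.8, 26.6 to 54.8 and 24 to 59.6 CPM in healthy gastrocnemius, quadriceps and tibialis. Map1lc3b was higher by 1.72 ± 0.30, 1.58 ± 0.29 and 1.26 ± 0.36 (limma, adjusted p = 0.00572, 0.0094 and 0.0443), with 132 to 148, 139 to 176 and 151 to 169.7 CPM in the healthy muscles. Every sick library lay above every healthy library for these 2 genes in each muscle. In tibialis the Foxo3 call was lost without sick libraries 1 or 2 (limma, adjusted p = 0.0557 and 0.0728), and the Map1lc3b call without any library but sick library 4 (limma, adjusted p = 0.0678 to 0.0983). Without healthy gastrocnemius library 2, where the kidney tubule markers were high, 5 of the 10 genes were called.

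Foxo1 was higher in sick than in healthy gastrocnemius by 2.48 ± 0.55 and quadriceps by 2.05 ± 0.60 (limma, adjusted p = 0.0168 and 0.0405). The gastrocnemius call was lost without sick library 2 or healthy library 3 (limma, adjusted p = 0.0617 and 0.0655), and the quadriceps call without sick libraries 2 or 3 or healthy libraries 1, 2 or 3 (limma, adjusted p = 0.0849 to 0.188). In tibialis the difference of 2.03 ± 0.61 did not pass (limma, adjusted p = 0.0505). It passed without sick library 4 and without healthy library 4 (limma, adjusted p = 0.0456 and 0.0335). Foxo4 and Ulk1 were called in quadriceps here and not against wild type, at 0.53 ± 0.16 and 0.90 ± 0.28 (limma, adjusted p = 0.0448 and 0.0444). For Foxo4, healthy quadriceps held 121 to 153 CPM, below the 159 to 205 CPM of wild type, and sick against wild type was only 0.15 ± 0.17. The Foxo4 call was lost without any library but sick library 3, and the Ulk1 call without any but sick library 4 (limma, adjusted p = 0.0546 to 0.223). Gabarapl1 was called in gastrocnemius (2.09 ± 0.45, limma, adjusted p = 0.0151), a call lost without healthy library 3 (limma, adjusted p = 0.056), and it passed in quadriceps without sick library 4 (limma, adjusted p = 0.00635). Sqstm1 was called in quadriceps (1.61 ± 0.31, limma, adjusted p = 0.0108), a call lost without sick library 2 (limma, adjusted p = 0.06), and it passed in gastrocnemius without sick library 1 (limma, adjusted p = 0.000679). Bnip3 was called in gastrocnemius and quadriceps at 1.75 ± 0.34 and 1.85 ± 0.39 (limma, adjusted p = 0.00928 and 0.0149), and the quadriceps call was lost without sick libraries 2 or 3 (limma, adjusted p = 0.0827 and 0.0611). Foxo4 was also called in tibialis at 0.84 ± 0.18 (limma, adjusted p = 0.0215), a call lost without sick library 1 or healthy library 2 (limma, adjusted p = 0.0641 and 0.0574). Without sick library 2 the 3 counts were 4, 2 and 1, without sick library 1 the tibialis count was 0, and without healthy library 3 the gastrocnemius count was 3. The tibialis count was 1 or 2 without healthy libraries 1, 2 or 3 and 5 without sick library 4, and the quadriceps count was 4 without sick library 3 or healthy libraries 2 or 3. The share of all genes called in these fits is not given here either.

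The sick libraries differed among themselves along their numbers, and the members split by how they followed them. Relative to the wild-type mean of its muscle, Gabarapl1 stood at 6.24 to 12.1 times in the 3 sick libraries numbered 2, 2.71 to 3.11 times in the 2 numbered 3, 0.937 to 1.2 times in the 2 numbered 1 and 1.11 to 1.28 times in the 2 numbered 4. Sqstm1 stood at 3.41 to 4.74, 3.41 to 4.52, 1 to 1.13 and 1.19 to 1.26 times in the same libraries. Bnip3 and Map1lc3b were also highest in numbers 2 and 3, and stood at 1.64 to 1.78 and 1.64 to 1.76 times in numbers 1, above their 1.25 to 1.53 and 1.35 to 1.41 times in numbers 4. Foxo3 was raised in all of them, at 3.36 to 5.31, 2.36 to 2.77, 3 to 3.14 and 1.97 to 2 times in numbers 2, 3, 1 and 4. So was Foxo1, at 3.93 to 6.92, 3.07 to 3.22, 2.14 to 2.54 and 2.25 to 2.47 times in that order, with wild-type libraries 4 far above their group's others. Foxo4 ran the other way, at 1.11 to 1.46 times in numbers 2, 0.862 to 1.25 in numbers 3, 2.1 to 2.47 in numbers 1 and 1.39 to 1.79 in numbers 4. Ulk1 was highest in numbers 2, at 2.04 to 4.54 times, and stood at 1.11 to 1.78 times in the others. Map1lc3a ran from 1.09 to 1.93 and Atg4b from 0.862 to 1.3 times over all sick libraries.

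No test was made between sick libraries, since the labels set no such groups. Mitochondrial transcripts took 5.22, 6.55 and 8.28% of counts in sick libraries 2 of gastrocnemius, quadriceps and tibialis, 5.81 and 4.79% in libraries 3, 11.1 and 12.3% in libraries 1 and 6.69 and 12.3% in libraries 4. Wild-type libraries held 8.23 to 12.6, 7.04 to 10.8 and 13.4 to 15.5% in the 3 muscles. Macrophage markers summed to 330.3, 349 and 259 CPM in sick libraries 2, to 235 and 501 CPM in libraries 3, to 112 and 51.8 CPM in libraries 1 and to 393 and 61.4 CPM in libraries 4. Their part in the order of the sick libraries was not tested.

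**Figure D3:**
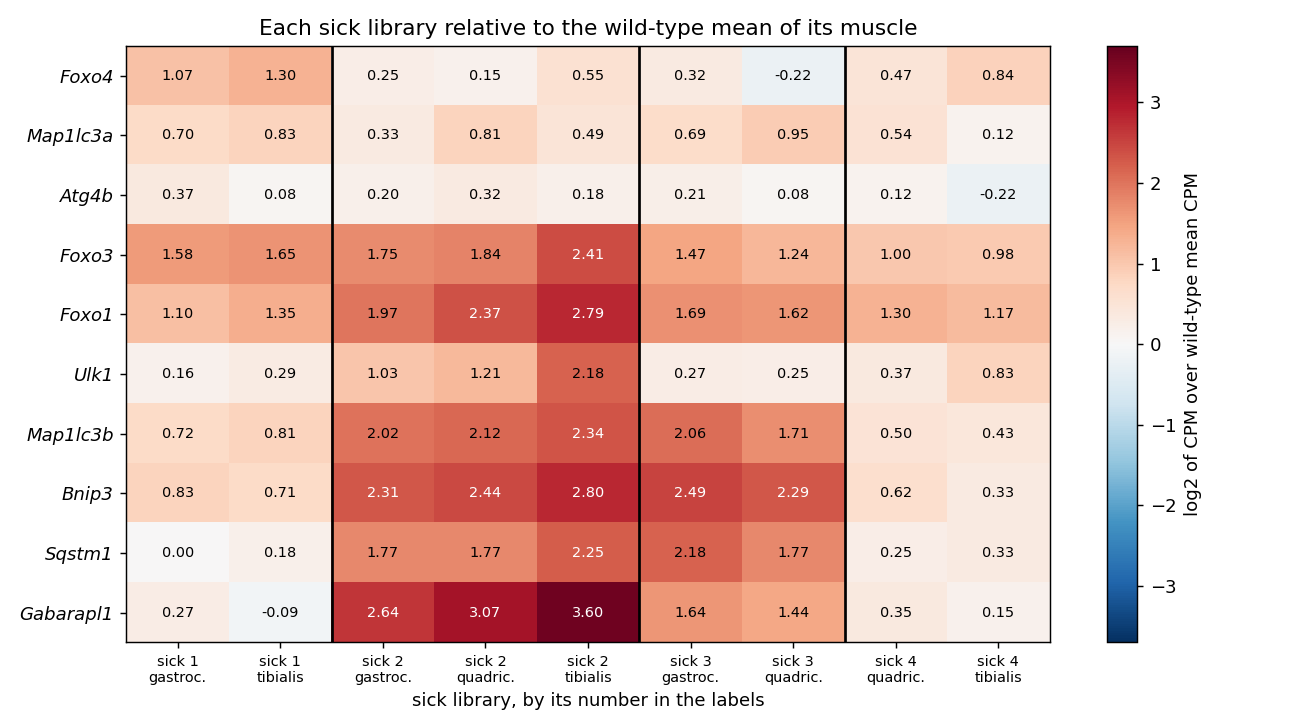
Log2 of each sick library's CPM over the mean of the wild-type libraries of its muscle, with genes in rows and the 9 sick libraries in columns ordered by their number. Gabarapl1, Sqstm1, Bnip3 and Map1lc3b are highest in libraries 2 and 3, whereas Foxo4 is highest in libraries 1.

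Whether the sick change differed between muscles was tested as a difference of changes over all 32 libraries. No member passed for quadriceps minus gastrocnemius, tibialis minus gastrocnemius or tibialis minus quadriceps by limma, where 0%, 0.204% and 0.243% of all genes tested passed. Unadjusted, 0, 0 and 1 of the 10 had p under 0.05. That member was Foxo4, whose sick change was larger in tibialis than in quadriceps by 0.78 ± 0.27 on the log2 scale (limma, adjusted p = 0.522). The differences ran from -0.43 to 0.18, from -0.61 to 0.62 and from -0.51 to 0.78. The sick libraries compared carry different numbers in the 3 muscles, which cannot be told apart from the muscle here.

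Among wild-type muscles no member passed either, where 1.07%, 2.58% and 5.67% of all genes tested passed for quadriceps against gastrocnemius, tibialis against gastrocnemius and tibialis against quadriceps. Their log2 fold changes lay from -0.24 to 0.23, from -0.13 to 0.42 and from -0.16 to 0.48, and 0, 1 and 0 had an unadjusted p under 0.05. With the library number as a replicate block, which pairs the muscles of a state, 253, 704 and 1610 of all genes passed, against 158, 380 and 834 without it, and again no member. Per kilobase of exon in GENCODE vM21, the mean levels in the 3 wild-type muscles were highest for Map1lc3a (133 to 189 CPM per kilobase) and Sqstm1 (125 to 140). Foxo4 followed at 43.2 to 51 CPM per kilobase, then Bnip3 at 28 to 30.9, Map1lc3b at 19.8 to 22.4, Gabarapl1 at 17.1 to 19.5 and Ulk1 at 13.7 to 16.3. Foxo1 and Foxo3 were near the bottom at 5.34 to 5.52 and 4.67 to 5.31, with Atg4b at 2.78 to 3.29. Means ± SD overlapped in at least 1 muscle for the neighbours Map1lc3a and Sqstm1, Bnip3 and Map1lc3b, Map1lc3b and Gabarapl1, Gabarapl1 and Ulk1, and Foxo1 and Foxo3. They were apart in all 3 muscles for Sqstm1 and Foxo4, Foxo4 and Bnip3, Ulk1 and Foxo1, and Foxo3 and Atg4b. Of the 3 FoxO genes in the set, Foxo4 had the highest level per kilobase in wild-type muscle. The length used merges all annotated exons of a gene and can exceed that of its mRNA, which lowers the value. It was 7517 bases for Map1lc3b and 1181 for Map1lc3a. Their unscaled wild-type means were 149, 168 and 168 CPM and 165, 157 and 223 CPM in gastrocnemius, quadriceps and tibialis. The order per kilobase thus depends on these lengths.

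Some members share exon sequence with genes on the other strand, and the sources used here do not state whether counting used strand. The shared part was 28.3% of Gabarapl1 exons with 1700101I11Rik, 22.3% of Bnip3 exons with Gm45507, 17.3% of Sqstm1 exons with Mrnip and 7.78% of Foxo1 exons with Gm20402. These partners were counted at no more than 1.84, 0.0808, 1.64 and 0 CPM in any library. Map1lc3b shares 0.772% of its exons with Zcchc14, at 23.1 to 71.3 CPM.

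The rest of the pathway was read from lists of other genes, with sick against wild type in gastrocnemius, quadriceps and tibialis in that order. Every list count below stands beside 8.22%, 10.5% and 8.44% of all genes tested called higher, 6.52%, 7.49% and 9.61% called lower, and all-gene median log2 fold changes of -0.03, 0.00 and -0.05. Of 11 genes of autophagy initiation and its kinases, 3, 2 and 3 rose and none fell. They were Rb1cc1, a scaffold of the Ulk1 complex (0.78 ± 0.24, 0.69 ± 0.19 and 0.94 ± 0.24 on the log2 scale, limma, adjusted p = 0.0496, 0.0292 and 0.0237), Tsc1, an upstream inhibitor of mTOR, in gastrocnemius and tibialis (1 ± 0.26 and 1.27 ± 0.28), Mtor itself in gastrocnemius and quadriceps (0.84 ± 0.24 and 0.88 ± 0.26), and Prkaa2, a catalytic subunit of the energy sensor AMPK, in tibialis (0.96 ± 0.21). Tsc1 acts against growth and Mtor for it, and in gastrocnemius both rose. The list medians were 0.28, 0.18 and 0.58.

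Of 15 genes of the phosphatidylinositol 3-kinase complex and phagophore growth, 3, 5 and 3 rose and none fell, with medians of 0.20, 0.35 and 0.51. Uvrag, a partner of Beclin in that complex, rose by 1.12 ± 0.25 in gastrocnemius and 1.23 ± 0.29 in quadriceps (limma, adjusted p = 0.0186 and 0.0205). Atg9a, the membrane protein that seeds the phagophore, rose by 0.87 ± 0.22 in tibialis, and the lipid transfer gene Atg2b by 0.44 ± 0.13 in quadriceps and 0.82 ± 0.19 in tibialis (limma, adjusted p = 0.0213, 0.0349 and 0.0181). The other genes of the Atg8 family and its conjugation machinery had the fewest calls of the 7 lists. Of 12, none was called by limma in gastrocnemius or tibialis, and in quadriceps Gabarap rose by 0.70 ± 0.17 and Atg4a fell by 0.47 on the log2 scale (SE 0.14, limma, adjusted p = 0.0197 and 0.0367). Their medians were -0.07, 0.08 and -0.06, close to those of all genes tested.

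Of 14 selective autophagy receptors, 4, 8 and 2 rose and 1, 1 and 0 fell, with medians of 0.46, 0.54 and 0.57. Retreg1, a receptor for the endoplasmic reticulum, rose by 2.40 ± 0.44, 2.51 ± 0.59 and 1.81 ± 0.49 (limma, adjusted p = 0.00897, 0.0209 and 0.0283), with means of 968, 929.9 and 798 CPM in sick muscles, against 157, 129.7 and 162 CPM in wild type. Bnip3l, the paralogue of Bnip3, rose by 1.14 ± 0.18 in gastrocnemius and 0.89 ± 0.23 in quadriceps, whereas its 0.98 ± 0.33 in tibialis did not pass (limma, adjusted p = 0.00475, 0.0261 and 0.0577). Calcoco1 rose in all 3 muscles, by 0.96 ± 0.15, 0.68 ± 0.17 and 1.10 ± 0.21 (limma, adjusted p = 0.00438, 0.0246 and 0.00819). Fundc1, another mitochondrial receptor gene, fell by 0.71 and 0.63 on the log2 scale in gastrocnemius and quadriceps (limma, adjusted p = 0.0241 and 0.0245). Of 12 genes of autophagosome fusion and lysosome regulation, 3, 4 and 3 rose and 0, 0 and 1 fell, with medians of 0.35, 0.32 and 0.42. Lamp2, a lysosomal membrane protein gene, rose by 0.94 ± 0.19, 0.72 ± 0.19 and 0.70 ± 0.22, and Rab7, the late endosome GTPase gene, by 0.89 ± 0.20, 0.59 ± 0.16 and 0.59 ± 0.18. Epg5, a tethering factor, rose by 1.19 ± 0.21 in tibialis, where the SNARE gene Vamp8 fell by 0.77 on the log2 scale (limma, adjusted p = 0.00727 and 0.0411).

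Of the 20 genes in the list of FoxO regulators, 6, 7 and 8 rose and 0, 1 and 1 fell, with medians of 0.62, 0.30 and 0.48. The list also holds Foxo6, which is itself a FoxO gene and not an upstream regulator. Igf1r, the receptor for insulin-like growth factor, rose by 1.78 ± 0.22, 1.40 ± 0.30 and 1.81 ± 0.36 (limma, adjusted p = 0.00219, 0.0157 and 0.0104), and Pik3r1, the regulatory subunit of the kinase downstream of it, by 1.87 ± 0.43, 1.28 ± 0.22 and 1.99 ± 0.35 (limma, adjusted p = 0.0207, 0.0101 and 0.00681). Akt1 rose by 0.99 ± 0.15 in gastrocnemius and 1.09 ± 0.18 in quadriceps, and its 0.50 ± 0.17 in tibialis did not pass (limma, adjusted p = 0.00404, 0.0101 and 0.0553). The gene that fell was Foxo6, the remaining FoxO gene of the mouse, which fell by 3.34 on the log2 scale in quadriceps and fell by 2.67 in tibialis (SE 0.77 and 0.81, limma, adjusted p = 0.0189 and 0.0406). It averaged 0.728 and 1.36 CPM in sick quadriceps and tibialis, against 8.08 and 7.81 CPM in wild type. The quadriceps call was lost without sick libraries 2 or 3 (limma, adjusted p = 0.152 and 0.061), and the tibialis call without any of the sick libraries 1, 2 and 4 (limma, adjusted p = 0.0586, 0.198 and 0.072).

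Among 24 genes reported as FoxO targets in muscle or other tissues, 13, 9 and 6 rose and 1, 2 and 1 fell, with medians of 0.90, 0.82 and 0.79. Sesn1, a stress-induced inhibitor of mTOR signalling, rose by 3.35 ± 0.33, 2.98 ± 0.42 and 3.22 ± 0.54 (limma, adjusted p = 0.000971, 0.00593 and 0.00551). Eif4ebp1, an inhibitor of translation initiation, rose by 3.14 ± 0.36, 2.97 ± 0.51 and 2.38 ± 0.46 (limma, adjusted p = 0.00154, 0.0101 and 0.00936). The ubiquitin ligase gene Fbxo31 rose by 1.82 ± 0.24, 1.58 ± 0.34 and 1.86 ± 0.37 (limma, adjusted p = 0.00272, 0.0164 and 0.0105). Fbxo32, another, rose by 3.04 ± 0.80 in gastrocnemius and 2.80 ± 0.58 in tibialis, and its 2.65 ± 0.89 in quadriceps did not pass (limma, adjusted p = 0.0322, 0.0121 and 0.0598). Sod2, the mitochondrial superoxide dismutase gene and a textbook FoxO3 target, fell by 0.88, 0.74 and 0.82 on the log2 scale (limma, adjusted p = 0.0277, 0.0365 and 0.0292). Sesn3 fell by 0.89 in quadriceps (SE 0.26, limma, adjusted p = 0.0364). The list was drawn up with results of these samples known and is no independent evidence of direction.

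Leaving out a single library moved these list counts both ways. FoxO targets called higher ranged from 1 to 14 in quadriceps and from 4 to 10 in tibialis, against 9 and 6 with all libraries. In tibialis the phosphatidylinositol 3-kinase list ranged from 0 to 7 and the receptors from 1 to 5, against 3 and 2. Without sick library 2, no gene of the initiation or phosphatidylinositol 3-kinase list was called higher in gastrocnemius, and in quadriceps the higher calls were 0 in every list but that of FoxO targets, where 1 was left. FoxO targets called higher in gastrocnemius and tibialis numbered 6 and 4 without that library, and FoxO regulators 3 and 5. The share of all genes called in these fits is not given here, so the shifts are not a result about the lists.

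**Figure D4:**
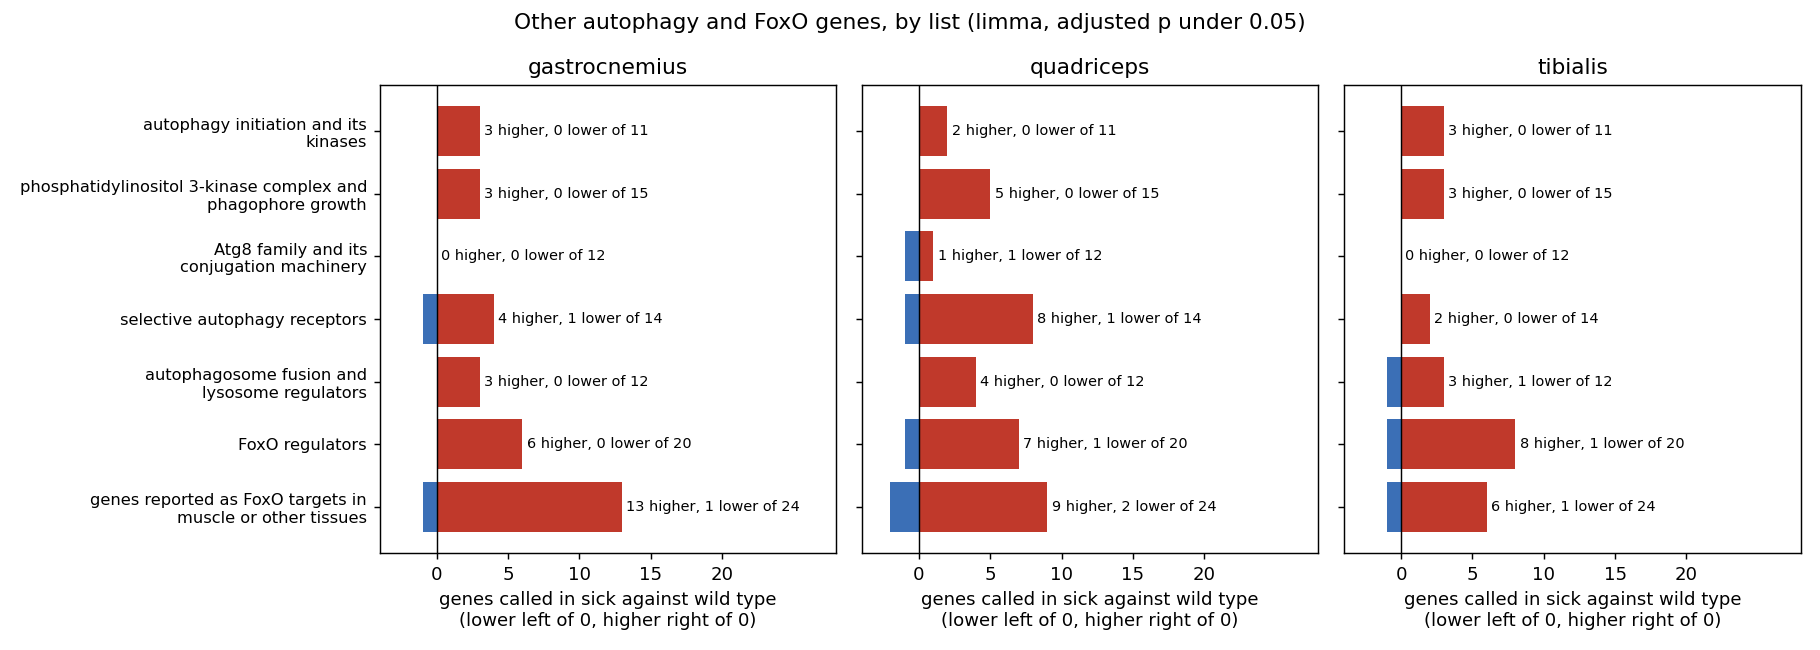
Number of genes in each list called higher (red, right of 0) or lower (blue, left of 0) in sick than in wild-type muscle by limma at an adjusted p under 0.05, with the number measured beside each bar. FoxO targets in gastrocnemius have the most higher calls, 13 of 24, and the Atg8 family and its conjugation machinery the fewest.

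The genes whose levels ran most like those of 4 members were ranked over the 32 libraries among 13552 genes measured in every muscle, as a description. The libraries share states and numbers, so a high Pearson r reflects differences between groups as well as between libraries. Map3k6, Bcl2l1 and Ercc5 were most like Foxo1 (r = 0.967, 0.953 and 0.949 on log2 CPM). Sesn1, Il6ra and Ercc5 were most like Foxo3 (r = 0.964, 0.955 and 0.948). Psmd3, Fbxo31 and Anapc16 were most like Map1lc3b (r = 0.978, 0.971 and 0.970), and Sbds, Tbc1d15 and Cnppd1 most like Gabarapl1 (r = 0.966, 0.952 and 0.95). Spearman's rho over the same libraries was 0.912, 0.857 and 0.896 for Foxo1, 0.917, 0.920 and 0.926 for Foxo3, 0.839, 0.837 and 0.731 for Map1lc3b, and 0.886, 0.719 and 0.761 for Gabarapl1.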

How the data were processed

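RNA was read in 32 libraries of mouse gastrocnemius, quadriceps and tibialis. Per the submitters' processing notes, cutadapt 1.18, TopHat2 2.1.1, HTSeq 0.6.0 and DESeq2 1.22.1 were used with build GRCm38. The authors deposited 1 table of whole-number gene counts beside their own comparisons, with log2 fold changes and p-values, whose members' values are quoted only as the authors' deposited table. In 6252 of the 54838 genes the deposited count is a question mark in every library. They were left out, and because of them the values were tested with limma-voom (limma 3.58.1, R 4.3.3) rather than a count model. Each muscle was fitted alone with its 3 states, after a filter (the CPM of 10 counts at median depth in at least the number of libraries of the smallest group, and 15 counts summed), TMM scaling and robust variance moderation. Differences between muscles used all 32 libraries. P-values were adjusted by Benjamini-Hochberg over all genes tested, with a threshold of 0.05. Calls were checked on simulated counts, drawn as independent libraries with the same dispersion for every gene. That check covers neither libraries that deviate together nor genes that spread widely among sick libraries, so it does not vouch for single calls here.

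The members and lists were chosen with earlier results of these data known. All 10 members were named, with the 3 genes with the highest Pearson r to each of 4 members. List genes were drawn, by list and muscle, from the 2 highest and 2 lowest log2 fold changes among genes called in sick against wild type. Not all of these are described, and Atg2a, Wipi2, Atg14 and Ambra1, which rose, are among those left out. Same-numbered wild-type libraries deviated together in every pair of quadriceps with gastrocnemius and of tibialis with quadriceps, and in 2 of 4 pairs of tibialis with gastrocnemius. Alternatives were median-of-ratios scaling, no filter, limma-trend, a replicate block, the 2 groups alone, all 32 libraries, each library left out, and, added after seeing the data, leaving out the libraries numbered 4. Promoters are RefSeq windows on GRCm38.p6, and exon lengths come from GENCODE vM21, with all annotated exons of a gene merged. Depth was 7685164 to 42588233 counts per library.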

Additional observations from a re-analysis of the deposited data

Results flagged for a closer look

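In 3 of 50 groups of 4 libraries, 1 library of a member stood apart from the other libraries of its group by more than Dixon's critical value, which chance passes in about 1 of 20 groups. Foxo1 was at 109.9 CPM in healthy quadriceps library 4, with the others at 24 to 34.4 CPM. Foxo1 was at 101 CPM in healthy tibialis library 4, with the others at 23 to 35.7 CPM. Bnip3 was at 90.8 CPM in wild-type tibialis library 3, with the others at 51.8 to 55.5 CPM.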

How the results depend on the processing

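Over the members' fold changes for sick against wild type and sick against healthy, 420 values under other settings gave 347 with the same direction and side of the threshold, 62 that fell short of it, 11 that newly passed and 0 that turned sign. Leaving out 1 library gave 305, 92, 9 and 4 of 410. The members called higher in sick than in wild-type gastrocnemius, quadriceps and tibialis (6, 7 and 5) ranged over these left-out libraries from 3 to 6, 0 to 7 and 2 to 6, and those higher than in healthy muscle (5, 7 and 3) from 3 to 6, 2 to 7 and 0 to 5. Foxo4 against wild type in quadriceps ranged from -0.03 to 0.33, and Atg4b in tibialis from -0.04 to 0.15. Without the filter on low counts the counts were 3, 4 and 2 against wild type, and against healthy 3 in gastrocnemius and 2 in quadriceps. With only the 2 groups compared in the fit they were 3 in gastrocnemius and 2 in tibialis against wild type, and 2 in quadriceps and 0 in tibialis against healthy. With all 32 libraries in the fit the count against healthy tibialis was 6. For the left-out libraries the share of all genes called is not given here, and the causes were not tested.

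Over all genes, same-numbered libraries of different states within a muscle did not deviate together (29 pairs, correlation -0.174 to 0.257, 6 over 0.1), although Foxo1 itself was high in healthy and wild-type libraries numbered 4. Within a muscle the replicate block pairs same-numbered libraries of different states, which come from different mice and which no label links. It is thus no check on a real pairing. The block ended the Foxo1 calls against wild type in quadriceps and tibialis (limma, adjusted p = 0.0699 and 0.0605). With the replicate block the members called were 3 in quadriceps and 2 in tibialis against wild type, and 3 in quadriceps and 1 in tibialis against healthy. Against wild-type and healthy gastrocnemius they were 4 and 5. The block changed no call of a member between healthy and wild type or between muscles.

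Over all genes tested, calls for sick against wild type numbered 2087, 2488 and 2621, and for sick against healthy quadriceps and tibialis 2431 and 1646. The block gave 879 and 1260 against wild-type quadriceps and tibialis, and 1295 and 576 against healthy. With only the 2 groups they were 1231 in gastrocnemius and 1236 in tibialis against wild type, and 366 and 95 against healthy. All 32 libraries gave 3280 in gastrocnemius against wild type and 2951 in tibialis against healthy, no filter gave 1458 and 1086 against healthy, and leaving out libraries numbered 4 gave 4876 and 4557 in quadriceps. Between healthy and wild type the 1, 5 and 72 calls became 1 to 11, 2 to 13 and up to 123. No filter gave 79 against 31 and 77 against 37 calls for the differences of tibialis from gastrocnemius and quadriceps. With 3 sick libraries a group, smaller changes may go undetected.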
